A study of Mus musculus with 16 samples.

Results

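The mitochondrial ribosomal protein genes of mouse skeletal muscle were taken as every row of the expression table whose symbol begins with Mrpl or Mrps followed by a number. The rule found 78 genes among 14538, and all 78 exceeded the minimum mean of 10 normalized counts used for testing. By textbook assignment, 51 of them encode proteins of the large subunit and 26 proteins of the small subunit. Mrps18a and Mrps30 were counted with the large subunit, in which their products lie in spite of their symbols. The remaining gene, Mrps36, encodes a subunit of the 2-oxoglutarate dehydrogenase complex and not a ribosomal protein.

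RNA came from the tibialis anterior, which lies along the shin and consists mainly of fast fibres, and each mouse gave 1 library. All 16 mice were wild-type males labelled C57BL/6 (C57BL/6J in the study's methods), single-housed at 29 °C and fed from 8 weeks of age a diet high in fat and fructose with a small addition of cholesterol, called the NASH diet after a form of fatty liver disease. The Vehicle group held 5 mice that received vehicle injections, the GDF15 group 6 mice injected daily under the skin with recombinant GDF15, a hormone that lowers food intake, and the PairFed group 5 mice given each day the amount of food that the GDF15-treated mice had eaten. The labels give neither the GDF15 dose of these mice nor the length of treatment, so the comparisons refer to 1 diet, 1 muscle, 1 sex and an unstated dose. The PairFed against Vehicle comparison asks what pair-feeding goes with in the absence of GDF15, that is, a smaller daily ration in place of free access to food. GDF15 against PairFed asks what differs at matched intake.

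Mitochondrial ribosomes stand on the inner membrane of the mitochondrion and translate the few messenger RNAs of mitochondrial DNA, all of which encode membrane subunits of the respiratory chain and of ATP synthase. Their RNAs come from mitochondrial DNA, whereas every protein of the particle is encoded in the nucleus, made in the cytosol and imported. Many of the proteins descend from bacterial ribosomal proteins, and others were added in the mitochondrial lineage. Muscle depends on these ribosomes because its respiratory complexes combine nuclear and mitochondrial products.

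Of the genes below, Mrpl45 and Mrpl34 had the smallest p-values for PairFed against Vehicle, and neither overlaps an exon of another annotated gene. Their upstream DNA is shown for that reason, as the 120 bases before the RefSeq start of transcription on the GRCm38.p6 assembly, 5′ to 3′ on the strand of the gene. The Mrpl34 stretch lies at chr8:71464806-71464925 and the Mrpl45 stretch at chr11:97315596-97315715, both on the plus strand. Capitals mark the letters CCGGAAG, the core that ETS factors such as GABP, a regulator of nuclear genes for mitochondrial proteins, are known to bind.
Mrpl34: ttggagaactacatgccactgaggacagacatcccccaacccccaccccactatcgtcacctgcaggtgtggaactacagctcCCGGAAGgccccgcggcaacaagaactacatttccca
Mrpl45: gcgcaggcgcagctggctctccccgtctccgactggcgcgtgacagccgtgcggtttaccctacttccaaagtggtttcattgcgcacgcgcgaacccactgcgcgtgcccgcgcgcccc

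The core began 37 bases before the Mrpl34 start, and the Mrpl45 window held none of the 4 cores searched. Over the 69 of 78 genes matched to a RefSeq start, 18 (26.1%) had CCGGAAG on either strand within 250 bases upstream, against 1481 of the 9471 matched tested genes and 7.83% of all 27025 upstream windows of that length. The share was 31.0% of 58 matched cytosolic ribosomal protein genes and 18.6% of 59 matched respiratory chain genes. The core GCATGCGC, bound by NRF1, another regulator of nuclear mitochondrial genes, occurred upstream of 8 members (11.6%), against 5.05% of tested genes, 2.56% of all windows, 11.9% of respiratory chain genes and 0 of 58 cytosolic ribosomal protein genes. The YY1 core ATGGCGG occurred once (1.45% against 4.54% and 2.58%), and the E-box CACGTG, bound by MYC and clock proteins, occurred in 5 members (7.25% against 10.2% and 6.86%). These are counts of letters and not of binding sites. None of the 4 cores contains another.

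Of the 78 genes, 23 (29.5%) had the start of another protein-coding gene on the opposite strand at most 1000 bp upstream of their own GENCODE start, or overlapping it by at most 200 bp, a head-to-head arrangement found for 1389 of 11621 tested protein-coding genes, 22 of 72 nuclear respiratory chain genes and 12 of 79 cytosolic ribosomal protein genes. Mrpl46 and Mrps11, which start on opposite strands and overlap by more than that limit, were not counted. The members' principal transcripts were short, with a median of 1302 bp against 3097 bp for tested protein-coding genes, though longer than those of respiratory chain (863 bp) and cytosolic ribosomal protein genes (878 bp). They were spread over 17 chromosomes, and the most were found on chromosome 11 with 11 genes and chromosome 17 with 8. Exons of 28 members overlapped a gene on the opposite strand in the GENCODE annotation, and the strand setting of the counting is not given in the sources used here, so it is unknown whether reads of such pairs were separated, although the libraries were directional. Mrpl23, Mrpl48 and Mrps36 have annotated pseudogenes that could take up or give up reads.

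The libraries held approximately 9486310 to 15039300 assigned reads each. The members together took 0.293% to 0.343% of all normalized counts, with a mean of 0.335% ± 0.00744 (SD, n = 5) in Vehicle, 0.325% ± 0.0126 (SD, n = 6) in GDF15 and 0.304% ± 0.0124 (SD, n = 5) in PairFed. The lowest Vehicle share, 0.326%, lay above the highest PairFed share, 0.323%. The 10 most abundant genes of a library, contractile, calcium-handling and energy-supply genes of the fibre such as Myh4, Atp2a1 and Ckm, took 27.3% ± 1.12 of the counts in PairFed against 25.4% ± 0.553 in Vehicle and 25.8% ± 0.722 in GDF15, so the share of every other gene in PairFed moves with theirs. The part of that difference in the results was not tested. The comparisons below use normalized counts, whose scaling is less tied to the most abundant genes. In a whole muscle, fewer cells of a type and less RNA per cell cannot be told apart.

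Within the family, levels ranged widely. Mean normalized counts over the 16 libraries ran from 34.6 for Mrpl23 to 2581 for Mrpl42, with a median of 442. Per kilobase of transcript, the scale on which genes can be compared, Mrpl42 was highest at 3876 normalized counts, followed by Mrps21 at 1950, Mrpl33 at 1303 and Mrpl30 at 1238. The lowest were Mrpl57 at 39.6, Mrps25 at 45.0 and Mrpl23 at 50.1. Proteins of the same particle thus came from RNAs at very different levels per kilobase, although the length used is that of 1 annotated transcript per gene and a longer annotated end lowers the value.

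Members fixed for their role lay between these ends. Mrpl12, the factor-binding stalk protein of the large subunit, stood at 1036 normalized counts per kilobase and Mrps12, which lines the decoding site of the small subunit, at 354. Mrps34, a mitochondrial addition to the small subunit, stood at 613, and Mrps18a at 667. Mrpl44, which has a ribonuclease-like fold, stood at 284, Mrpl58, a peptidyl-tRNA hydrolase built into the large subunit, at 134 and Mrps30 at 131. Mrps36 stood at 1030.

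The spread between mice was small for most members. The median coefficient of variation was 5.85% in Vehicle, 6.74% in GDF15 and 6.67% in PairFed, and 65, 66 and 61 of the 78 genes stayed under 10% in these groups. Mrps28 varied least in Vehicle (0.989%), Mrpl2 in GDF15 (1.56%) and Mrpl15 in PairFed (1.17%). The highest value of each group belonged to the low-count gene Mrpl23, at 31.0% in Vehicle and 51.2% in GDF15, and to Mrpl19 in PairFed, at 34.4%. In GDF15, Mrpl19 stood at 46.7%.

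Pair-fed mice had less RNA of several mitochondrial ribosomal proteins than vehicle-treated mice, by small amounts. Of the 78 genes, 60 (76.9%) had a lower fitted mean in PairFed against 49.8% of all 11841 tested genes, and the median log2 fold change was −0.08, a difference of −5.42%, where the median of all tested genes was 0.00. At an adjusted p-value under 0.1 (limma, Benjamini-Hochberg over all tested genes), 6 members were lower, or 7.69%, where 3.17% of all tested genes were called lower. The study paired this threshold in this muscle with a log2 fold change over 0.6 in size, and 1 member, Mrpl19, passed both, where 0.49% of all tested genes did in the lower direction. At the adjusted p alone none was called higher, where 3.2% of all tested genes were, although 19 members had an unadjusted p under 0.05 in the lower direction (background 9.82%) and 0 in the higher (background 9.04%). The 6 genes were Mrpl45, Mrpl34, Mrpl12, Mrpl51, Mrpl19 and Mrps6, and 5 of them encode large-subunit proteins.

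Mrpl45 encodes a large-subunit protein near the exit of the peptide tunnel that ties the ribosome to the inner membrane. The gene lies at chr11:97315716-97329920 on the plus strand of GRCm38. Its normalized counts were 797, 779, 850, 735 and 781 in the 5 Vehicle mice and 632, 686, 723, 673 and 668 in the 5 PairFed mice. Every PairFed mouse lay below every Vehicle mouse. The fit gave a log2 fold change of −0.22 (SE 0.05), a decrease of 14.2% with an adjusted p of 0.0162 by limma.

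Mrpl34 encodes a small basic protein of the large subunit with a bacterial counterpart, at chr8:71464959-71465747 on the plus strand. It stood at 413, 407, 401, 387 and 378 normalized counts in Vehicle and at 303, 359, 336, 330 and 302 in PairFed. The groups did not overlap, and PairFed mouse 3 came closest to the Vehicle range. Its RNA fell by 0.29 on the log2 scale (SE 0.06, adjusted p 0.0194 by limma), a difference of −18%.

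Mrpl12, besides its place in the stalk, has been described as a partner of the mitochondrial RNA polymerase. It lies at chr11:120484613-120489065 on the plus strand. Its normalized counts were 1476, 1449, 1516, 1394 and 1471 in Vehicle and 1262, 1309, 1249, 1250 and 1113 in PairFed. PairFed mouse 6 was the lowest and all 5 PairFed mice lay below the Vehicle range. The difference was −0.24 (log2, SE 0.06), or −15.5%, with an adjusted p of 0.0331 by limma. The annotated gene Gm16755 overlaps it on the other strand.

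Mrpl51, a mitochondrial addition to the large subunit, lies at chr6:125191801-125196269 on the plus strand, 100 bp from the start of Ncapd2 on the other strand. Vehicle mice had 1497, 1547, 1475, 1482 and 1429 normalized counts, and PairFed mice had 1360, 1344, 1279, 1363 and 1283. The ranges did not overlap. Its log2 fold change was −0.16 (SE 0.04, adjusted p 0.0467 by limma), or −10.8%. Without Vehicle mouse 2 or PairFed mouse 6 the call was lost.

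Mrps6, the one small-subunit gene of the 6, has a bacterial counterpart and lies at chr16:92058270-92112227 on the plus strand. Its normalized counts were 169, 145, 159, 158 and 142 in Vehicle and 133, 140, 121, 130 and 120 in PairFed. The groups did not overlap, but the highest PairFed mouse and the lowest Vehicle mouse were only 2 counts apart to the nearest count. The log2 fold change was −0.26 (SE 0.08, adjusted p 0.0763 by limma), or −16.5%, and the call was lost in 10 of 29 alternative fits. The gene shares exons on its strand with Slc5a3, a myo-inositol transporter gene, which had means of 28.3, 35.5 and 29.1 normalized counts in Vehicle, GDF15 and PairFed and was not called in any comparison.

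Mrpl19 encodes a protein at the face of the large subunit that meets the small one. It lies at chr6:81957851-81965958 on the minus strand. It had 331, 363, 286, 279 and 286 normalized counts in Vehicle and 107, 243, 208, 209 and 117 in PairFed, where mice 2 and 6 were lowest. At −0.87 (log2, SE 0.28, adjusted p 0.0936 by limma) its difference of −45.2% was the one that also exceeded a log2 fold change of 0.6. The call was lost in 14 of 29 alternative fits, among them those without any one of the 5 Vehicle mice. Gcfc2, an antisense gene whose exons overlap those of Mrpl19, had means of 41.8, 45.9 and 27.9 in Vehicle, GDF15 and PairFed, with a log2 difference between PairFed and Vehicle of −0.52 (SE 0.23, adjusted p 0.228 by limma). The part of this neighbour in the Mrpl19 values was not tested.

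**Figure D1:**
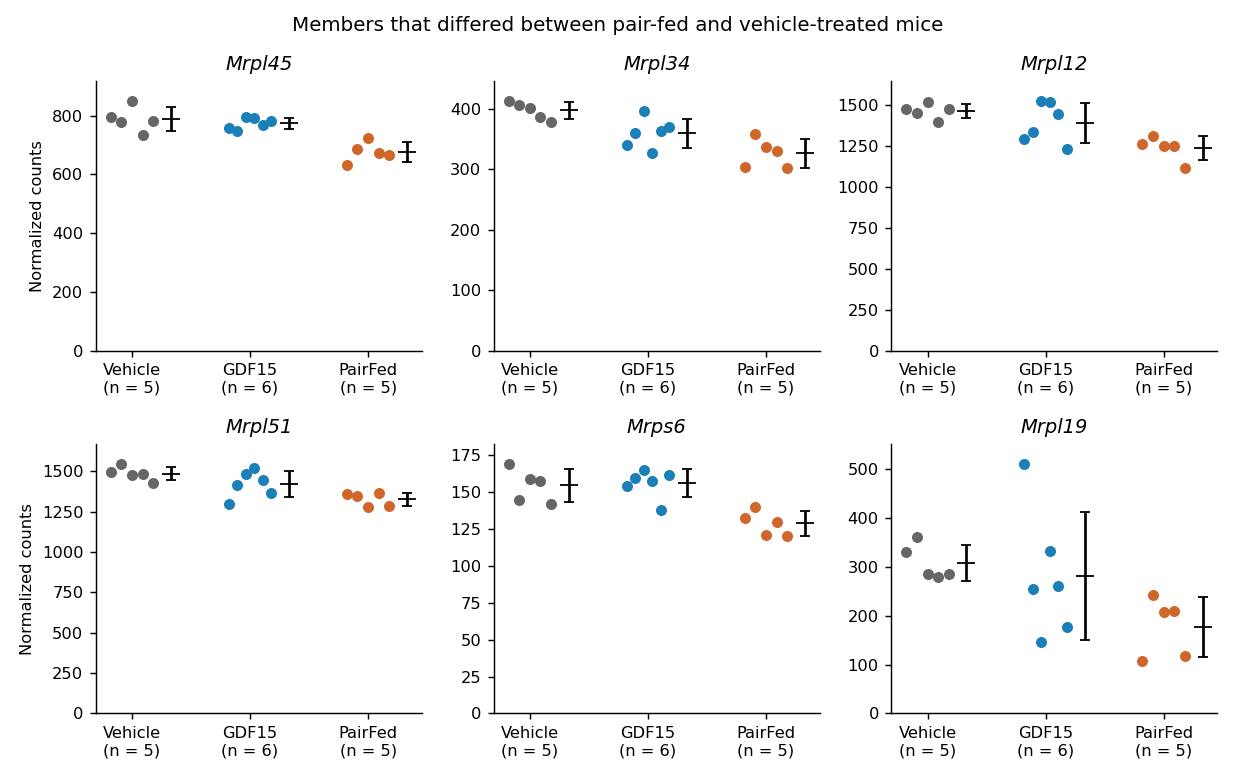
Normalized counts of the 6 members called for PairFed against Vehicle, with 1 point per mouse, the mean as a horizontal mark and the SD as the bar, on axes that start at 0. In each panel the 5 PairFed mice lie below the 5 Vehicle mice, and GDF15-treated mice lie near Vehicle for Mrpl45 and Mrps6 and between or across the other groups for the rest.

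In all, 9 members had every PairFed mouse below every Vehicle mouse (background 2.65%), the 6 above and Mrps9, Mrpl50 and Mrpl15. Mrps9, at the decoding side of the small subunit, ranged from 506 to 550 normalized counts in Vehicle and from 407 to 503 in PairFed (log2 −0.18, SE 0.07, adjusted p 0.152 by limma). Mrpl50 ranged from 600 to 660 in Vehicle and from 528 to 591 in PairFed (adjusted p 0.168 by limma). Mrpl15 differed by only −5.04% (adjusted p 0.312 by limma), with narrow ranges of 778 to 833 and 754 to 773. One member, Mrpl22, went the other way without overlap (background 2.79%), at 191 to 215 in Vehicle and 219 to 235 in PairFed, with a log2 difference of 0.12 (SE 0.08, adjusted p 0.472 by limma). Mrpl50, Mrpl15 and Mrpl22 are named because their ranges did not overlap, after their values were seen.

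Of the members fixed for their role, Mrpl12 was the one called. Mrpl58 had a log2 difference of −0.12 (95% interval −0.27 to 0.03), Mrps36 of −0.09 (−0.21 to 0.03), Mrps18a of −0.05 (−0.16 to 0.06) and Mrps34 of −0.02 (−0.13 to 0.08). Mrpl44 was at −0.01 (−0.13 to 0.12), Mrps12 at 0.03 (−0.12 to 0.18) and Mrps30 at 0.07 (−0.09 to 0.24). The most abundant members per kilobase did not pass, with Mrpl42 at −0.06 (SE 0.05), Mrps21 at 0.02 (SE 0.06), Mrpl33 at −0.02 (SE 0.05) and Mrpl30 at −0.12 (SE 0.04, adjusted p 0.127 by limma).

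**Figure D2:**
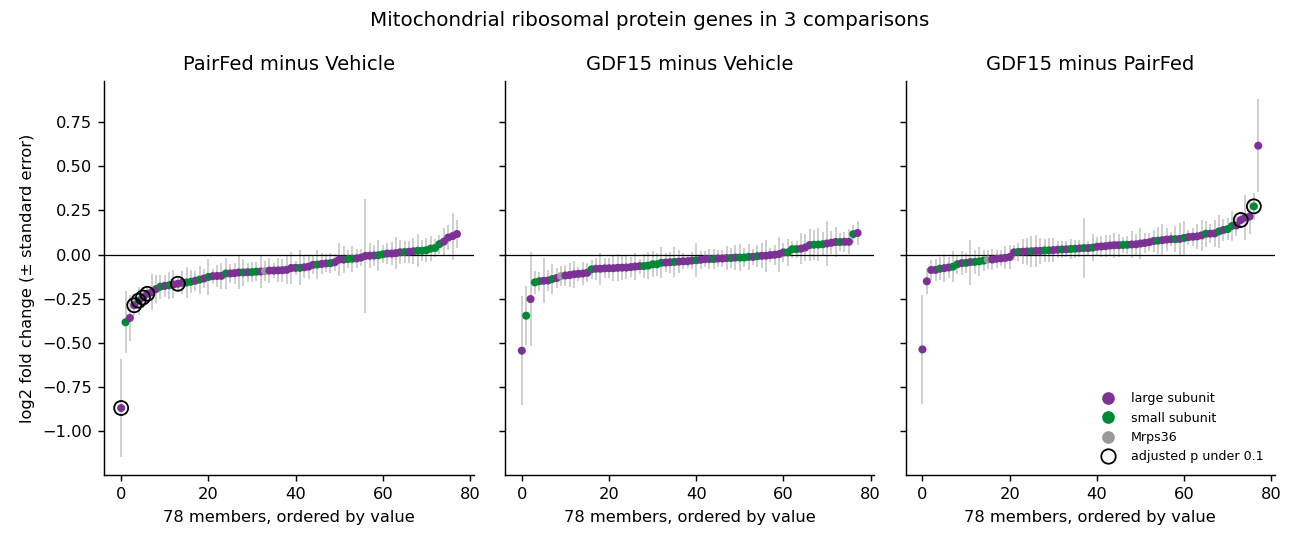
log2 fold changes of the 78 genes in 3 comparisons, each ordered from lowest to highest, with the standard error as a grey line, the subunit as the colour and a ring for an adjusted p under 0.1. The curve lies below 0 for 60 genes in PairFed minus Vehicle and 59 in GDF15 minus Vehicle, and above 0 for 57 in GDF15 minus PairFed, a comparison that shares its mice with the other two.

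GDF15-treated mice showed no called difference from vehicle-treated mice in any member. The median log2 fold change was −0.04, or −2.41%, and 59 of 78 genes (75.6%) had a lower mean, against 49.6% of all tested genes. With limma, 0 members were called in either direction, where 0.338% of all tested genes were called lower and 0.431% higher, and at an unadjusted p under 0.05 there were 6 lower (background 5.41%) and 1 higher, Mrps18b (background 5.63%). Mrps31, a mitochondrial addition to the small subunit, had the smallest p. Its normalized counts were 368, 382, 362, 366 and 364 in Vehicle and 313 at the lowest, 331 at the median and 353 at the highest in GDF15. It was the one member whose groups did not overlap in the lower direction (background 0.861%), at −0.15 (log2, SE 0.05, adjusted p 0.28 by limma).

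The next smallest p-values belonged to Mrpl30 (−0.11, SE 0.04), Mrps9 (−0.16, SE 0.06) and Mrpl34 (−0.15, SE 0.06), with adjusted p of 0.318, 0.364 and 0.37 by limma. The genes called in pair-fed mice had these values in GDF15 against Vehicle. Mrpl45 stood at 749, 775 and 797 normalized counts (lowest, median and highest of 6 mice), a log2 difference from Vehicle of −0.02 (95% interval −0.12 to 0.07). Mrps6 stood at 138, 158 and 165, a difference of 0.01 (−0.15 to 0.17). For both genes the GDF15 mice lay within or close to the Vehicle range.

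Mrpl34 stood at 326, 362 and 396 in GDF15, where every mouse but mouse 3 lay below the lowest Vehicle mouse. Mrpl12 stood at 1229, 1387 and 1522, a log2 difference of −0.08 (95% interval −0.20 to 0.04), and Mrpl51 at 1300, 1431 and 1520, a difference of −0.06 (−0.15 to 0.02). In both genes the GDF15 range overlapped those of Vehicle and PairFed. Mrpl19 was the most uneven, at 146, 259 and 512, with a difference of −0.25 (−0.81 to 0.30).

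At matched food intake, 2 members were higher in GDF15-treated than in pair-fed mice. The median log2 fold change of GDF15 against PairFed was 0.04 (2.71%), and 57 of 78 genes had a higher mean in GDF15, against 6011 of 11841 tested genes. The 2 called genes (2.56%, where 0.929% of all tested genes were called higher) were Mrpl45 and Mrps6, and none was called lower (background 1.24%). At an unadjusted p under 0.05, 10 members were higher (background 6.29%) and 0 lower (background 6.87%). This comparison and PairFed against Vehicle use the same 5 PairFed mice, so a low value in those mice enters both.

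For Mrpl45, the lowest GDF15 mouse at 749 normalized counts lay above the highest PairFed mouse at 723, and the log2 fold change was 0.20 (SE 0.04, adjusted p 0.0486 by limma), or 14.6%. The call was lost without GDF15 mouse 4 or without PairFed mouse 2, 5 or 6. For Mrps6 the log2 fold change was 0.27 (SE 0.08, adjusted p 0.0942 by limma), or 20.9%. Its groups overlapped by 1 mouse, GDF15 mouse 5 at 138 normalized counts against PairFed mouse 3 at 140, and the call was lost in 18 of 29 alternative fits.

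Mrpl53 was the other member whose groups did not overlap (background 0.718%), at 572 to 596 in GDF15 and 536 to 563 in PairFed (log2 0.09, SE 0.04, adjusted p 0.363 by limma), and it is named after its values were seen. Mrpl12 differed by 0.17 (SE 0.06, adjusted p 0.205 by limma), Mrpl51 by 0.10 (SE 0.04, adjusted p 0.31) and Mrpl19 by 0.62 (SE 0.26, adjusted p 0.32). None of these 3 passed. Mrpl23, the least abundant member, had a log2 difference of −0.54 (SE 0.31, adjusted p 0.478 by limma) on 12.5 to 48.4 normalized counts per GDF15 mouse, and no difference was detectable in it at this depth.

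By subunit, 41 of 51 large-subunit genes had a lower mean in PairFed than in Vehicle, with a median log2 fold change of −0.09, and 18 of 26 small-subunit genes, with a median of −0.07. The called genes were 5 of 51 and 1 of 26, where 3.17% of all tested genes were called lower. In GDF15 against Vehicle the medians were −0.04 and −0.02, and in GDF15 against PairFed 0.05 and 0.03. With 1 library left out, they ran from −0.05 to −0.03 and −0.05 to −0.01 in GDF15 against Vehicle. In GDF15 against PairFed they then ran from 0.03 to 0.07 and 0.01 to 0.05. Sorted by descent, the 46 genes with a bacterial counterpart had a median of −0.08 in PairFed against Vehicle with 4 called, and the 31 mitochondrial additions a median of −0.07 with 2 called, beside the same 3.17%. The differences between these classes were not tested.

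Averaged over the 78 genes, each mouse's deviation from the mean of the 16 libraries was 0.03, 0.04, 0.08, 0.00 and 0.07 on the log2 scale in Vehicle mice 1 to 5. In PairFed mice 2 to 6 it was −0.05, 0.01, −0.05, −0.00 and −0.13. GDF15-treated mice ran from −0.05 to 0.07 with a median of −0.01. PairFed mouse 6 was the lowest of all libraries and PairFed mouse 3 lay within the Vehicle range. Without PairFed mouse 6 the calls against Vehicle were 3 (Mrpl12, Mrpl34 and Mrpl45), and without PairFed mouse 3 they were 10, the 6 above with Mrpl14, Mrpl18, Mrpl3 and Mrpl43. The share of all tested genes called in the same fits is not given here. Whether the counts changed more for the members than for all genes therefore cannot be read from them.

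**Figure D3:**
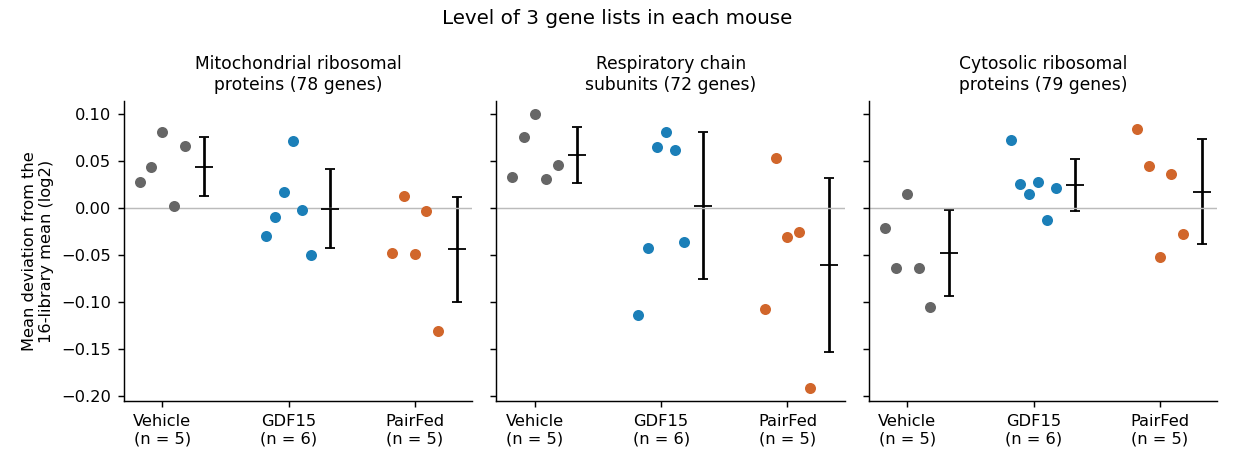
Mean log2 deviation of 3 gene lists from the 16-library mean, with 1 point per mouse, the group mean as a horizontal mark and the SD as the bar. Mitochondrial ribosomal and respiratory chain genes run from higher values in Vehicle to lower values in PairFed with overlapping groups, and cytosolic ribosomal protein genes are lowest in Vehicle.

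The wider machinery of mitochondrial gene expression was described from lists of genes by role. As background for the lists below, 49.8% of all tested genes had a lower mean in PairFed than in Vehicle. In that comparison 3.17% were called lower and 3.2% higher. The shares called lower and higher were 0.338% and 0.431% in GDF15 against Vehicle, and 1.24% and 0.929% in GDF15 against PairFed. Ribosomal proteins with other symbols (Dap3, Ptcd3, Chchd1, Aurkaip1 and Gadd45gip1) had 0 of 5 genes called in each comparison. The log2 difference between PairFed and Vehicle was −0.00 (SE 0.08) for Dap3 and −0.14 (SE 0.06, adjusted p 0.193 by limma) for Ptcd3. Of 26 genes for ribosome assembly and modification of ribosomal RNA, 19 had a lower mean in PairFed and 0 were called, with a median of −0.04. With 1 library left out, this median ran from −0.06 to −0.01, and 15 to 19 genes had a lower mean.

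Of 16 translation factors and genes that handle mitochondrial messenger RNA, 15 had a lower mean, with a median of −0.14, and 1 was called. This was Taco1, a translational activator of a cytochrome c oxidase subunit, at 656 ± 22.4 normalized counts in Vehicle and 578 ± 41.2 in PairFed (SD, n = 5 each, log2 −0.19, adjusted p 0.0737 by limma). Of 20 genes that charge mitochondrial transfer RNAs, 14 had a lower mean, with a median of −0.08 (−0.09 to −0.03 with 1 library left out). Fars2, the phenylalanine enzyme, was the one called (414 ± 37.5 against 331 ± 48.0, SD, n = 5 each, log2 −0.33, adjusted p 0.0609 by limma). In GDF15 against Vehicle these 2 lists had medians of −0.08 each, with 0 called.

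Genes that copy and transcribe mitochondrial DNA had 6 of 11 lower means and 0 calls in PairFed against Vehicle. Tfam, which packages that DNA and helps to start its transcription, differed by −0.13 (SE 0.12, adjusted p 0.586 by limma). Polrmt, the mitochondrial RNA polymerase, differed by 0.05 (SE 0.12, adjusted p 0.867 by limma). Among 11 regulators of nuclear mitochondrial genes, 8 had a lower mean in PairFed, with a median of −0.14 (−0.16 to −0.06 with 1 library left out). Pprc1, a coactivator related to Ppargc1a, was the one called and went against that median, since it rose from 254 ± 41.0 to 330 ± 56.2 normalized counts (SD, n = 5 each, log2 0.37, adjusted p 0.098 by limma). Ppargc1a itself, the main coactivator of mitochondrial biogenesis in muscle, differed by −0.21 (SE 0.10, adjusted p 0.279 by limma), Gabpa by −0.14 (SE 0.07, adjusted p 0.281) and Nrf1 by 0.26 (SE 0.15, adjusted p 0.369). In GDF15 against Vehicle and in GDF15 against PairFed none of these regulators was called. The messenger RNAs that the mitochondrial ribosome translates were not analysed here.

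Most nuclear partners of those messages also had lower means in pair-fed mice. Of 72 nuclear respiratory chain genes, 71 had a lower mean in PairFed than in Vehicle (background 49.8%), with a median of −0.12. Against 3.17% of all tested genes called lower, 11 of the 72 were called, all lower. Among them, Ndufs4, a complex I subunit, fell from 1903 ± 91.4 to 1653 ± 77.8 normalized counts (SD, n = 5 each, adjusted p 0.0189 by limma) and Cox7a1, the muscle form of a cytochrome c oxidase subunit, from 3009 ± 74.5 to 2551 ± 141 (adjusted p 0.02). In GDF15 against Vehicle 65 of the 72 had a lower mean, with a median of −0.06 and 0 called. In GDF15 against PairFed 70 of the 72 had a higher mean, with a median of 0.06 and 0 called. With 1 library left out, the medians ran from −0.15 to −0.08, −0.07 to −0.03 and 0.03 to 0.09 in these 3 comparisons. In the last of them, 1 to 14 genes then had a lower mean.

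Cytosolic ribosomal protein genes lay on the other side. Of 79, 17 had a lower mean in PairFed than in Vehicle (background 49.8%), the median was 0.05 and 5 were called, all higher (background 3.2%). In GDF15 against Vehicle 74 of 79 had a higher mean, with a median of 0.07 and 1 called higher (background 0.431%). This was Rps4x, at 3029 ± 38.8 normalized counts (SD, n = 6) against 2721 ± 94.6 (SD, n = 5, adjusted p 0.0447 by limma). In GDF15 against PairFed 55 of 79 had a higher mean, with a median of 0.02, and 1 was called lower (background 1.24%). This was Rpl12, at −0.59 (log2, SE 0.16, adjusted p 0.0852 by limma). With 1 library left out, the medians ran from 0.03 to 0.07, 0.06 to 0.09 and 0.00 to 0.03 in these 3 comparisons. The medians of the mitochondrial ribosomal, respiratory chain and cytosolic ribosomal lists kept their signs in both comparisons with Vehicle under 4 other scalings of the libraries.

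**Figure D4:**
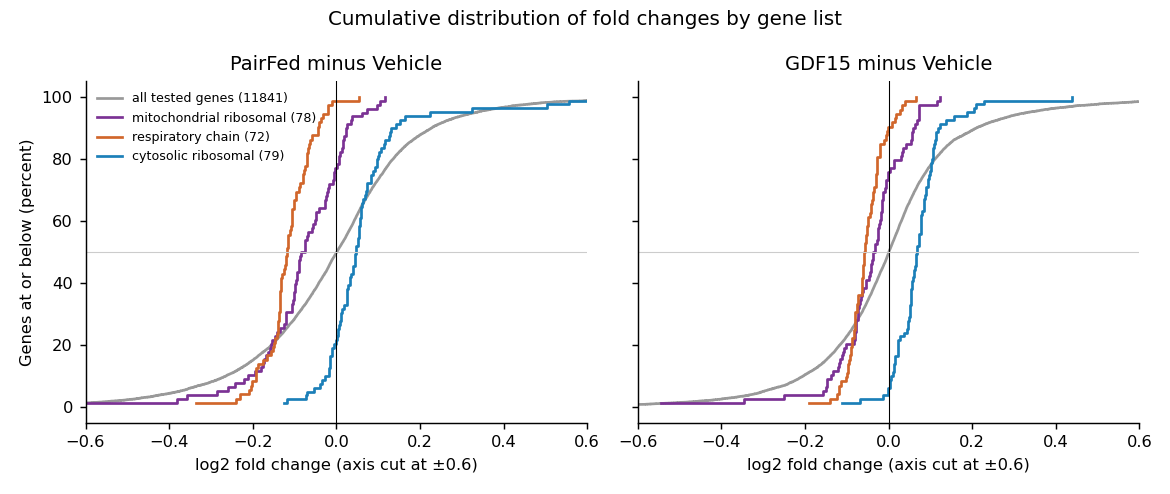
Cumulative percentage of genes at or below each log2 fold change for all 11841 tested genes and 3 lists, in PairFed minus Vehicle and GDF15 minus Vehicle, on an axis cut at ±0.6. The mitochondrial ribosomal curve crosses 50% at −0.08 in the first panel and −0.04 in the second, between the respiratory chain curve (−0.12 and −0.06) and the cytosolic ribosomal curve (0.05 and 0.07).

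Across mice of the same group, the members moved together only loosely. After removal of group means, the mean correlation over the 3003 pairs of members was 0.12, against 0.63 for 2556 pairs of respiratory chain genes and 0.31 for 3081 pairs of cytosolic ribosomal protein genes, each over 16 libraries. These points share library depth and scaling, and counting noise lowers the value for less abundant genes. With group differences left in, Mrpl12 followed the mean of the other members most closely over the 16 libraries (r = 0.90), and Mrps7 came next (r = 0.87). Within groups the order of these genes was reversed, with r = 0.88 for Mrps7 and 0.84 for Mrpl12. Mrpl20, a large-subunit protein, followed it least (r = −0.30, and −0.34 within groups), with a log2 difference of 0.02 (SE 0.07) between PairFed and Vehicle. Mrpl46 and Mrps11, adjacent genes whose exons overlap, had a correlation of 0.39 with group differences left in and 0.36 within groups.

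Markers of muscle and of other cells were read beside these results. All 8 markers of the skeletal muscle fibre were abundant, Ckm at 287440 to 351627 normalized counts per library, so the tissue label held. Of these 8, 7 had a higher mean in PairFed than in Vehicle (median log2 0.16). In GDF15, 6 had a higher mean than in Vehicle (0.05) and 7 a lower mean than in PairFed (−0.09). In PairFed against Vehicle, Myh1, a fast myosin of the more oxidative fibres, fell from 165385 ± 21120 to 104523 ± 22826 (SD, n = 5 each, log2 −0.68, adjusted p 0.0123 by limma), whereas Atp2a1 (0.20), Pvalb (0.27) and Ckm (0.15), genes most abundant in fast fibres, rose on the log2 scale, with adjusted p of 0.0402, 0.0538 and 0.0997 by limma. Their part in the lower levels of the mitochondrial ribosomal genes was not tested.

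Of 8 slow-fibre markers 0 were called. Against Vehicle, 6 of 8 had higher means in PairFed (median log2 0.36) and 7 of 8 in GDF15 (0.31), while Myh7 ranged from 33.1 to 1094 normalized counts per library. Of 5 endothelial markers all had lower means in PairFed and in GDF15 than in Vehicle, and Kdr was called in both, at 1230 ± 72.5 in Vehicle (SD, n = 5), 783 ± 92.7 in GDF15 (SD, n = 6) and 873 ± 110 in PairFed (SD, n = 5). The mean endothelial deviation ran from 0.00 to 0.27 (log2) in Vehicle, −0.23 to 0.07 in GDF15 and −0.19 to 0.09 in PairFed. Markers of adipocytes (7 tested), Schwann cells (6), macrophages (6), fibroblasts (6), satellite cells (4) and red blood cells (3 tested) had 0 calls in each comparison, but several of their medians lay further from 0 than that of the members. In PairFed against Vehicle 6 of 6 Schwann cell markers had lower means (median log2 −0.24), as did 5 of 6 for fibroblasts (−0.14) and 4 of 6 for macrophages (−0.15), whereas 7 of 7 adipocyte markers had higher means (0.35). In GDF15 against PairFed all 6 markers of each of Schwann cells, macrophages and fibroblasts had higher means, with medians of 0.43, 0.49 and 0.38, and 3 of 3 red blood cell markers did (1.17). In GDF15 against Vehicle higher means were found for 3 of 3 red blood cell markers (1.24), 6 of 7 adipocyte markers (0.37), 6 of 6 Schwann cell markers (0.21), 5 of 6 macrophage markers (0.27) and 4 of 6 fibroblast markers (0.26), and lower means for 3 of 4 satellite cell markers (−0.24). Mice of 1 group differed widely, the mean deviation of the Schwann cell list running from −0.45 to 0.24 in Vehicle, −0.08 to 0.36 in GDF15 and −0.79 to 0.50 in PairFed, and that of the macrophage list from −0.58 to 0.41, −0.76 to 0.64 and −0.96 to 0.44. The adipocyte list ran from −1.18 to 0.54, −1.89 to 1.83 and −0.25 to 1.13. In that list Car3 averaged 40105 normalized counts, whereas the other markers averaged from 10.6 (Retn) to 83.3 (Cfd). The part of any of these cells in the results was not tested.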

How the data were processed

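RNA-seq of tibialis anterior from 16 mice (5 Vehicle, 6 GDF15, 5 PairFed) was analysed, with groups and mouse numbers taken from the labels. Per the methods and the submitters' processing notes, directional libraries were read as 50 bp pairs, trimmed with Trim Galore, quantified with Salmon on mm10 and scaled with DESeq2, for which no versions or strand setting are given in the sources used here. The authors deposited log2 values (7.32 to 20.0 over 14538 genes), 8459 of them at the lowest value, which have the form of a variance stabilizing transformation. These were inverted to normalized counts, since the table holds no raw counts. In genes with 1 annotated transcript, 87.9% to 96.7% of low values per library lay at most 0.1 reads from an integer multiple of 1 shared step, from which depth was estimated. Whole reads were not recovered for genes with several transcripts, so no count test was run.

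The 11841 genes whose mean reached 10 normalized counts entered limma 3.58.1 as log2(normalized count + 1) in R 4.3.3, with a mean-variance trend, with all 3 groups in the fit, no covariate and Benjamini-Hochberg adjustment, at an adjusted p under 0.1 with or without a log2 fold change over 0.6 in size. Fold changes on this scale understate those of low genes. Tests are two-sided. Each p-value sets a group difference against the spread between mice, pooled over the 3 groups and drawn toward the mean-variance trend. Tables were handled with pandas 2.3.3 in Python 3.11.15. Gene positions come from GENCODE vM21 (GRCm38), in which all 78 members were found, and upstream sequences from RefSeq (GRCm38.p6).

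Members were named if they passed a threshold, had one of the 4 smallest p-values in a comparison, were among the 4 highest or 3 lowest per kilobase, had a fixed role, or followed the mean of the other members most or least. Mrpl2, Mrpl3, Mrpl14, Mrpl15, Mrpl18, Mrpl22, Mrpl43, Mrpl46, Mrpl50, Mrpl53, Mrps7, Mrps11, Mrps18b, Mrps28, Slc5a3, Gcfc2 and Myh7 fall outside this rule and were named after values were seen. In other lists, at most 4 called genes per comparison and 7 fixed genes were named. The members and the lists were chosen with earlier results of these data known. Alternatives were other pseudocounts, minimum counts, scalings, library weights, no trend, the deposited values, fits of 2 groups alone, a block for mouse number, and each library left out.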

Additional observations from a re-analysis of the deposited data

Results flagged for a closer look

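Of 72 groups of values that were checked, 5, all of named members, held a mouse apart from the others by Dixon's criterion. In it, the gap to the nearest mouse is divided by the range of the group. Chance alone does so in about 1 in 20 groups. Mrpl42 was high in Vehicle mouse 3, at 2850 normalized counts (ratio 0.757), and in GDF15 mouse 3, at 2789 (ratio 0.665). Mrps18a was high in Vehicle mouse 5, at 638 (ratio 0.775), and Mrpl20 in GDF15 mouse 2, at 313 (ratio 0.653). Mrps31 was high in Vehicle mouse 2, at 382 (ratio 0.729), in the gene with the smallest p-value for GDF15 against Vehicle.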

How the results depend on the processing

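The median log2 fold change of the 78 genes kept its sign in each of 28 alternatives, from −0.09 to −0.05 for PairFed against Vehicle, −0.05 to −0.02 for GDF15 against Vehicle and 0.02 to 0.06 for GDF15 against PairFed. The count of members called for PairFed against Vehicle, 6 in the report, was 4 to 7 under 13 other settings and 3 to 10 with 1 library left out, lowest without PairFed mouse 6 and highest without PairFed mouse 3. For Mrpl45, Mrpl34 and Mrpl12 this call held in each of 29 alternatives. Past both thresholds the count of 1 (Mrpl19) was 0 with the deposited log2 values, with no minimum count, with no trend and with the mouse number as a block, and 0 to 1 with 1 library left out; it was 0 without any 1 Vehicle mouse, GDF15 mouse 2 or 5, or PairFed mouse 2, 5 or 6. For GDF15 against PairFed the count of 2 was 1 with no minimum count, library weights, only the 2 groups, quantile scaling and the mouse number as a block, and 0 to 2 with 1 library left out, at 0 without GDF15 mouse 4 or PairFed mouse 2, 5 or 6. It was 1 without Vehicle mouse 2, 3, 4 or 5, GDF15 mouse 1, 2 or 3, or PairFed mouse 4. The count for GDF15 against Vehicle was 0 throughout. The share of all tested genes called in each of these fits is not given here, and the cause of these changes was not tested.

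Mice of the same number are different animals, and their deviations from the group means correlated between −0.10 and 0.07. Such correlations cannot show whether a pair-fed mouse was matched in food to a particular GDF15-treated mouse, and the labels name no pairs. With the number as a block, 5 members were called for PairFed against Vehicle, 1 for GDF15 against PairFed and 0 for GDF15 against Vehicle. Not every mouse correlated best with its own number. At the depth of these libraries, differences in the members with few reads, such as Mrpl23, were measured with large errors.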
